A study of Emberiza melanocephala with 4 samples.

Results

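APOA1, ONECUT1, CEBPB and GJB1 are 4 genes that vertebrate liver cells are known to use, and they were followed here through 4 RNA libraries of a migratory songbird, the black-headed bunting (Emberiza melanocephala). They are 4 of the 278 genes with a symbol in any of the authors' transcript files. Members were all transcripts whose reference gene name is one of these symbols, which gave 6 of 1076 listed transcripts. The genes were chosen by their FPKM and by the libraries that list them, so every level and ratio is given as a description, with no test.

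The libraries come from birds caught in the wild and hold total RNA sequenced by pyrosequencing, a method that gives few but long reads. There is 1 library for each label, namely liver in a long-day state (LD liver), liver in a short-day state (SD liver), hypothalamus in a long-day state (LD hypothalamus) and hypothalamus in a short-day state (SD hypothalamus). The labels used here state neither the age and sex of the birds, nor how many were pooled per library, nor the lighting schedule. With 1 library per label there is no replicate check of any difference, and no error can be given. For 2 of the 4 libraries, LD hypothalamus and SD liver, the recorded seasonal state contradicts the title. Under the recorded states both hypothalamus libraries would be short-day and both liver libraries long-day, so that season and tissue could not be told apart. Libraries are called by their titles throughout.

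APOA1 encodes the main protein of high-density lipoprotein, the particle that carries cholesterol back to the liver. In mammals liver and intestine secrete it, and in the chicken other tissues make it as well. ONECUT1, a homeodomain transcription factor, and CEBPB, a leucine-zipper transcription factor of the acute phase response and of gluconeogenesis, act in hepatocytes of mammals. GJB1 encodes a connexin, the channel protein of gap junctions, through which hepatocytes pass ions and small molecules to their neighbours. None of the 4 belongs to hepatocytes alone. In mammals ONECUT1 is also made in some neurons and in the pancreas, CEBPB in many cell types, and GJB1 in oligodendrocytes and Schwann cells. Because the libraries are bulk RNA, fewer cells of a type and less RNA per cell cannot be told apart.

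The depth was low. The aligned sequence came to 17.8 megabases in LD liver, 20.8 in SD liver, 13.3 in LD hypothalamus and 15.8 in SD hypothalamus. The files list 473, 175, 280 and 106 loci in this order, and the 10 highest loci hold 90.1% to 97.0% of the summed FPKM. FPKM is coverage per base of transcript, scaled to the aligned sequence of the library. The number of reads behind a transcript was not analysed here, so aligned bases (mean coverage times exon length) are given as the measure of evidence. A gene without a transcript in a file is called not listed, which does not mean a level of 0. Newly assembled transcripts have a coverage of at least 2.50 in every file, whereas reference transcripts are listed down to a coverage of 0 in 3 of the files.

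Each of the 4 genes was listed in some libraries and not in others. By reference gene name, 1 of the 4 was listed in LD liver (APOA1), 2 in SD liver (ONECUT1 and CEBPB), none in LD hypothalamus and 3 in SD hypothalamus (APOA1, ONECUT1 and GJB1). A further entry came without a name. At the APOA1 locus of SD liver the file lists an assembled transcript with no reference gene, and counting it brings SD liver to 3 of 4. Of the 278 named loci, 66.9% were listed in LD liver, 24.1% in SD liver, 47.1% in LD hypothalamus and 12.9% in SD hypothalamus, so the libraries with the longer lists held fewer of the 4 genes. The genes were chosen by where they are listed, and nothing is read from these counts.

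**Figure D1:**
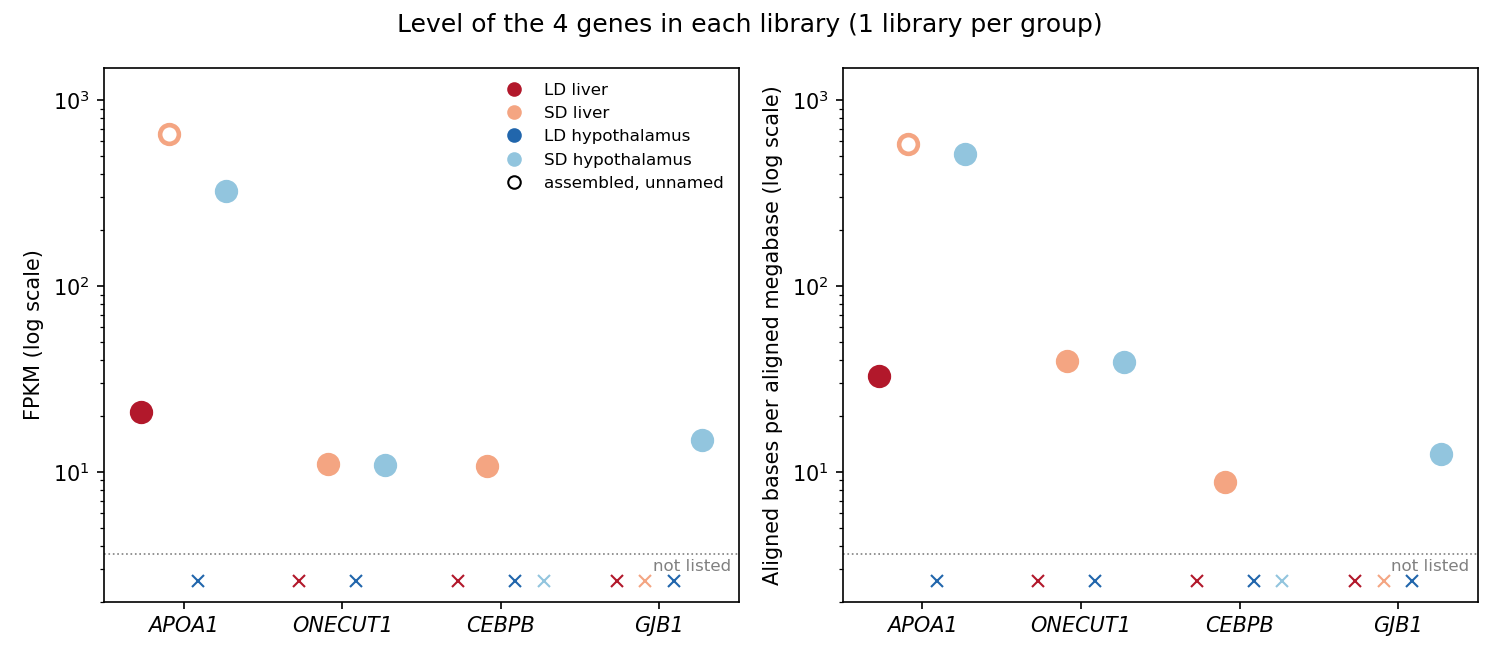
FPKM (left) and aligned bases per aligned megabase (right), both on log axes, of APOA1, ONECUT1, CEBPB and GJB1 in LD liver, SD liver, LD hypothalamus and SD hypothalamus. Each point is 1 library, the open point is the assembled transcript at the APOA1 locus that carries no gene name, and crosses mark libraries in which the gene is not listed. APOA1 in SD liver and SD hypothalamus stands above every other point, by a wider gap between these libraries in FPKM (655 and 327) than in aligned bases per megabase (585 and 516).

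APOA1 was the most abundant of the 4. It lies on the minus strand of scaffold JH603405.1, from 184244 to 186123 of the collared flycatcher build FicAlb 1.4, and its reference transcript (gene ENSFALG00000005591) has 3 exons and 1579 exonic bases. Its level was 20.9 FPKM in LD liver, 655 FPKM in SD liver (the unnamed transcript) and 327 FPKM in SD hypothalamus, and it was not listed in LD hypothalamus. Both SD libraries were thus high and LD liver low. These values rest on 587 aligned bases in LD liver, 12148 in SD liver and 8154 in SD hypothalamus. Among the loci of each library APOA1 ranked 380th of 473 by FPKM in LD liver, 19th of 175 in SD liver and 26th of 106 in SD hypothalamus.

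The unnamed SD liver transcript covers part of the APOA1 gene and shares its splicing. It runs from 184786 to 185752 on the same strand with 2 exons and 892 exonic bases, 56.5% of the reference length. Its intron, 185613 to 185687 (75 bases), has the same ends as the downstream intron of the reference transcript. Missing from it are the last 542 bases at the 3′ end of the gene and 145 exonic bases at the 5′ end, including the first exon. The nearest other listed locus on the scaffold, in any library, lies 93.3 kb away. How often such a name is lost can be counted only in part. A gene that no library names is left out of the count. The 168 of 278 named loci listed in a single library carry their name by definition. Of loci that carry a symbol in some library, 3 of 186 were listed without it in LD liver, 5 of 67 in SD liver, 5 of 131 in LD hypothalamus and 2 of 36 in SD hypothalamus. A search by reference name alone would have left out APOA1 in the library where it was highest.

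Most of the APOA1 sequence lay in the last exon. This exon has 1369 of the 1579 reference bases, or 86.7%, and held 88.2% of the aligned APOA1 bases in LD liver, 97.0% in SD liver and 95.7% in SD hypothalamus. In the shorter SD liver transcript the last exon makes up 92.7% of the length, so 97.0% is to be set beside that share. In LD liver the coverage was low in every exon, with a mean of 0.48 in the first exon, 0.27 in the second and 0.38 in the last. These means rest on 27, 42 and 518 aligned bases, which a small number of long reads can supply. In SD hypothalamus it climbed along the transcript, with 0.0089 in the first exon, 2.29 in the second and 5.70 in the last. The first exon there rests on 0.50 aligned bases, a fraction of a base, so it is in effect uncovered. In SD liver the covered 65 bases of the second exon had a mean coverage of 5.62 and the covered 827 bases of the last exon 14.2. In SD hypothalamus the lowest coverage therefore lay toward the 5′ end. In SD liver the same held within the assembled part only. That transcript also lacks the last 542 bases at the 3′ end, where its coverage is not known. LD liver showed no drop toward the 5′ end, but its aligned bases are too few for its pattern along the gene to be read.

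**Figure D2:**
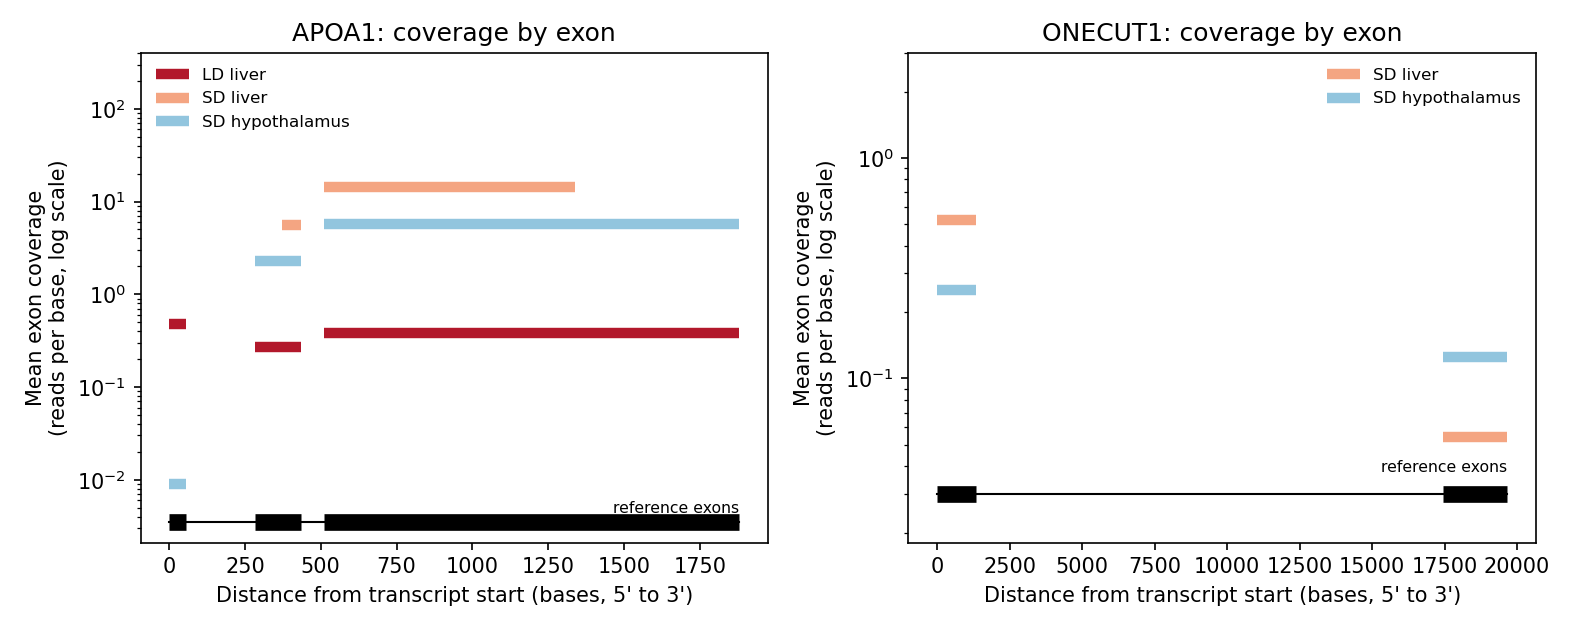
Mean coverage of each exon (reads per base, log axis) against distance from the transcript start in bases, for APOA1 (left; LD liver, SD liver and SD hypothalamus) and ONECUT1 (right; SD liver and SD hypothalamus). Black blocks are the reference exons and each coloured bar spans the exon as that library lists it, not scaled for depth. APOA1 coverage rises toward the last exon in both SD libraries (5.62 to 14.2 in SD liver, 0.0089 to 5.70 in SD hypothalamus). For SD liver this holds within the assembled part, which lacks both ends of the gene. In LD liver it is low in every exon and rests on few aligned bases. ONECUT1 coverage falls along the gene in both SD libraries.

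Between the liver labels APOA1 was far lower in LD. The ratio of LD liver over SD liver was -4.91 on the log2 scale (FPKM plus a pseudocount of 1). Without the pseudocount, FPKM was 31.4-fold higher in SD liver. Both values set a reference transcript of 1579 bases against an assembled one of 892. Per aligned megabase, without dividing by transcript length, APOA1 had 33.0 aligned bases in LD liver and 585 in SD liver. This gave a log2 ratio of -4.11, and a 17.7-fold higher value in SD liver without the pseudocount. On both scales APOA1 was the lowest of the 53 loci listed in both liver libraries. Among these loci, 37.7% were at least 2-fold apart and 18.9% at least 2-fold lower in LD liver, and the median log2 ratio was -0.36. Without the unnamed transcript no ratio between the liver labels exists. Markers of neurons also differ between these libraries. LD liver lists 4 of 20 (summed level 561 FPKM) and SD liver, whose list is shorter, none. Their part in the APOA1 difference was not tested.

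Between the SD libraries the result for APOA1 depended on the scale. The ratio of SD liver over SD hypothalamus was 1.001 in log2 FPKM, which is just at the 2-fold line, and 0.18 in aligned bases per megabase (585 in SD liver and 516 in SD hypothalamus). If the SD liver bases are spread over the full reference transcript, SD liver has 370 FPKM, against 327 in SD hypothalamus. This last value leaves out any SD liver reads outside the assembled interval. Among the 67 loci listed in both SD libraries, 20.9% were at least 2-fold apart and 7.46% at least 2-fold higher in SD liver. A 2-fold higher APOA1 level in SD liver is therefore not secure. The locus had different lengths in these libraries, as had 40 of the 67 shared loci.

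LD liver and SD hypothalamus are the only libraries that list the same APOA1 reference transcript, so length plays no part between them. They differ in both tissue and season label, and this pair was added after the values were seen. The log2 ratio of LD liver over SD hypothalamus was -3.90, with 20.9 and 327 FPKM. Without the pseudocount, the level was 15.6-fold higher in the library labelled SD hypothalamus. The share of loci at least 2-fold apart was not counted for this pair, so how unusual the ratio is cannot be said. The order of the levels was thus SD liver and SD hypothalamus close together and LD liver far below. LD hypothalamus could not be placed in it. At the LD liver level of 33.0 bases per megabase, LD hypothalamus would hold 438 APOA1 bases, and 84 of its 183 reference transcripts were listed with fewer bases than that.

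**Figure D3:**
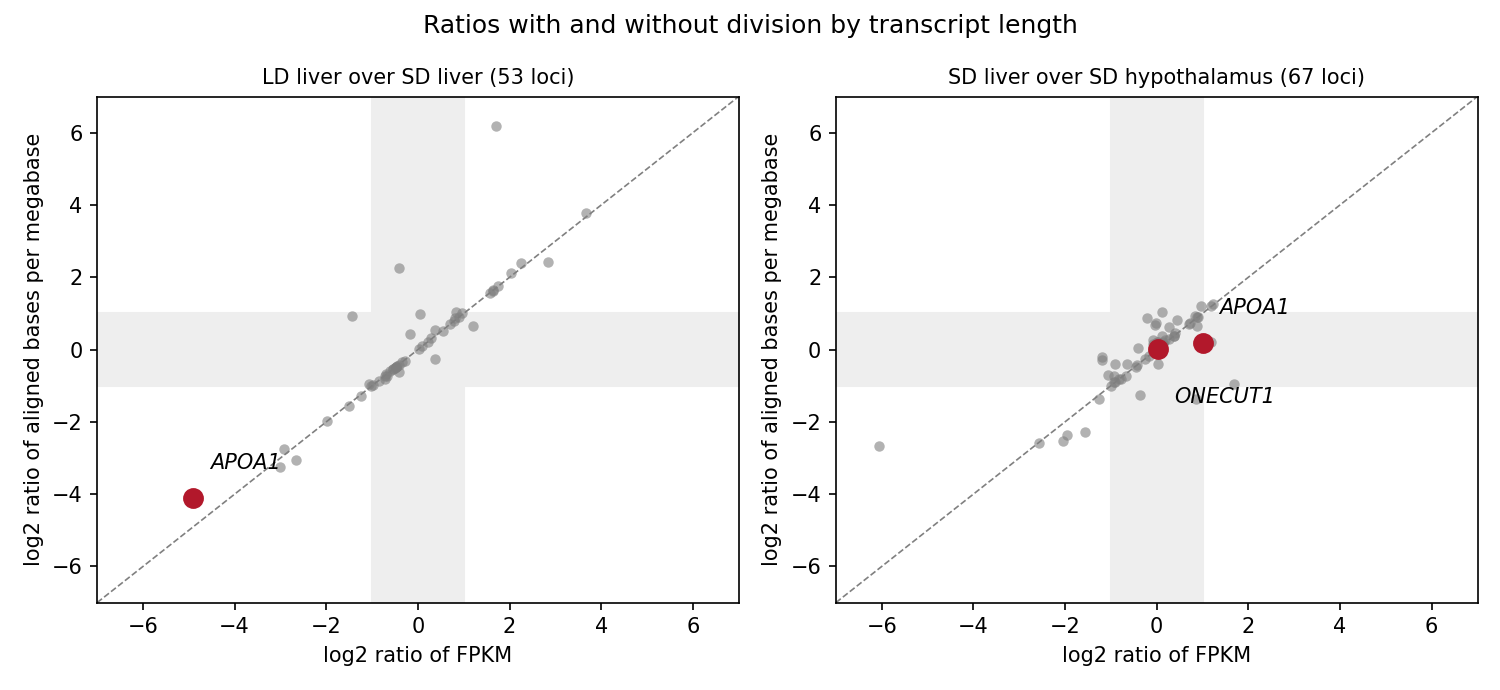
log2 ratio of FPKM (horizontal) against log2 ratio of aligned bases per megabase (vertical) for loci listed in both libraries, for LD liver over SD liver (53 loci) and SD liver over SD hypothalamus (67 loci). Grey bands mark ratios under 2-fold, the dashed line marks equal ratios, and red points are APOA1 and ONECUT1. APOA1 is the lowest locus on both axes between the liver labels (-4.91 and -4.11), and in the SD pair it sits at the 2-fold line in FPKM (1.001) but near 0 on the vertical axis (0.18).

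ONECUT1 was listed in the SD libraries only, at nearly the same level. The gene, ENSFALG00000011940, has 2 exons and 3586 exonic bases on the minus strand of JH603201.1, 4920281 to 4939950. It had 11.1 FPKM in SD liver and 10.9 FPKM in SD hypothalamus, from 827 and 618 aligned bases, and was not listed in LD liver or LD hypothalamus. The log2 ratio of SD liver over SD hypothalamus was 0.02 on either scale, at the same reference transcript, beside a median of 0.003 in FPKM over the 67 shared loci.

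The evenness of the ONECUT1 totals hides a difference between its exons. The first exon, of 1349 bases, held 705 of the 827 aligned bases in SD liver (85.2%) and 339 of the 618 in SD hypothalamus (54.9%). The second, of 2237 bases, held 122 in SD liver and 279 in SD hypothalamus. Scaled to depth, the first exon had 33.9 aligned bases per megabase in SD liver and 21.5 in SD hypothalamus, and the second 5.87 and 17.7. At these few bases a small number of long reads can set such a split. The total of ONECUT1 would come to 696 bases in LD liver and 519 in LD hypothalamus at the SD hypothalamus level, and 139 of 251 and 95 of 183 reference transcripts were listed there with fewer.

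CEBPB was listed in SD liver alone, at 10.8 FPKM. Its reference transcript (ENSFALG00000014081) is a single exon of 822 bases on the plus strand of JH603297.1, 807520 to 808341, and no other locus on this scaffold was listed in any library. The value rests on 184 aligned bases, a mean coverage of 0.22, and ranked 146th of 175 loci. At that level the other libraries would hold 157 bases (LD liver), 117 (LD hypothalamus) and 140 (SD hypothalamus). Of the reference transcripts, 50 of 251, 38 of 183 and 8 of 56 were listed with fewer bases there.

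GJB1 was listed in SD hypothalamus alone, at 14.8 FPKM. It is a single exon of 840 bases (ENSFALG00000015181) on the minus strand of JH603221.1, 2900272 to 2901111. The value rests on 197 aligned bases, a mean coverage of 0.23, and ranked 87th of 106 loci by FPKM and 98th by aligned bases. Neither liver library lists it. At its SD hypothalamus level SD liver would hold 259 bases, and 34 of the 88 reference transcripts of SD liver were listed with fewer. CEBPB and GJB1 have no intron in the annotation, so splicing gives no check of them, and either amount is small enough for a single long read to supply.

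The 2 families with another listed member were the connexins and the C/EBP factors. GJA1, the connexin of astrocytes and of many other tissues, was listed in LD liver (57.2 FPKM, 1165 aligned bases) and LD hypothalamus (55.4 FPKM, 843 aligned bases) and in neither SD library, while GJB1 was listed in SD hypothalamus only. These were the 2 listed genes of the 19 on the gap junction list. CEBPG, a C/EBP factor without a transactivation domain of its own in mammals, was listed in LD liver only (43.9 FPKM, 354 aligned bases), and CEBPB in SD liver only. With ONECUT1 they were the 3 listed of 27 hepatocyte transcription factors. HNF4A, FOXA2 and CEBPA, central regulators of hepatocytes, were listed by name in no library. Genes of all the lists were sought by name, so a gene that no library names counts as not listed. Assembled transcripts without a reference made up 37.5% to 52.2% of the transcripts per library, and some may belong to such genes. Most named loci, 168 of 278 (60.4%), were listed in a single library, and CEBPB and GJB1 rest on few bases, so nothing is read from family members standing in different libraries.

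Of 23 genes of lipoprotein and lipid transport, APOA1 and SAR1B were listed. SAR1B, a GTPase needed in mammals to export large lipoproteins from the endoplasmic reticulum, had 101 FPKM in SD hypothalamus (952 aligned bases) and was not listed elsewhere. APOB, MTTP and LCAT, which build or remodel lipoproteins, were not listed by name. Of 36 hepatocyte metabolic enzymes, 3 were listed, all in SD liver and in no other library. AHCY, which hydrolyses S-adenosylhomocysteine, had 65.1 FPKM (4482 aligned bases), and ADH5, the glutathione-dependent formaldehyde dehydrogenase, 37.3 FPKM (2039 aligned bases). None of 35 hepatocyte secreted proteins, ALB and TTR among them, and none of 12 acute phase genes was listed by name in any library. An unnamed transcript of such a gene would not have been found. APOA1, itself a secreted product of liver, was counted on the lipid transport list.

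The lists of brain markers had listed members in the LD libraries. Of 20 neuron markers, 4 were listed in LD liver and 2 in LD hypothalamus, and none in SD liver or SD hypothalamus. The defining gene SNAP25, of synaptic vesicle fusion, had 462 FPKM in LD liver and 290 FPKM in LD hypothalamus. SPARC and GPM6B, of the astrocyte and myelin lists, were also in both LD libraries and in neither SD library. SPARC had 244 FPKM in LD liver, on an unnamed transcript of 815 bases. In LD hypothalamus SPARC had 41.5 FPKM, on the reference transcript of 3479 bases. GPM6B had 87.1 FPKM in LD liver and 91.2 in LD hypothalamus. CLDN5, of the endothelium list, was in LD hypothalamus alone (13.9 FPKM). None of 11 red blood cell and muscle markers was listed by name in any library. Over the neuron, astrocyte, myelin and endothelium lists, 7 of 54 markers were listed in any library, 6 of them in LD liver, 5 in LD hypothalamus and none in SD liver or SD hypothalamus. Beside the shares of all named loci in these files (66.9%, 47.1%, 24.1% and 12.9%), these counts are too small to set the tissue of a library, and none in so short a file as SD hypothalamus says little. The level of SNAP25 in LD liver was above that in LD hypothalamus, so the label of liver is to be read with caution. SNAP25 had the highest level of these markers but was not the only one in LD liver. The neuron markers STMN2 (46.9 FPKM) and SLC32A1 (26.8 FPKM) were listed there and not in LD hypothalamus. GAP43 had 26.1 FPKM in LD liver and 38.8 FPKM in LD hypothalamus. The label of SD hypothalamus calls for the same caution. That library lists none of these markers, and its APOA1 was near the SD liver level (516 and 585 aligned bases per megabase). There is no replicate of any library, and whether a label is wrong was not tested. The part of these markers in the levels of the 4 genes was not tested.

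**Figure D4:**
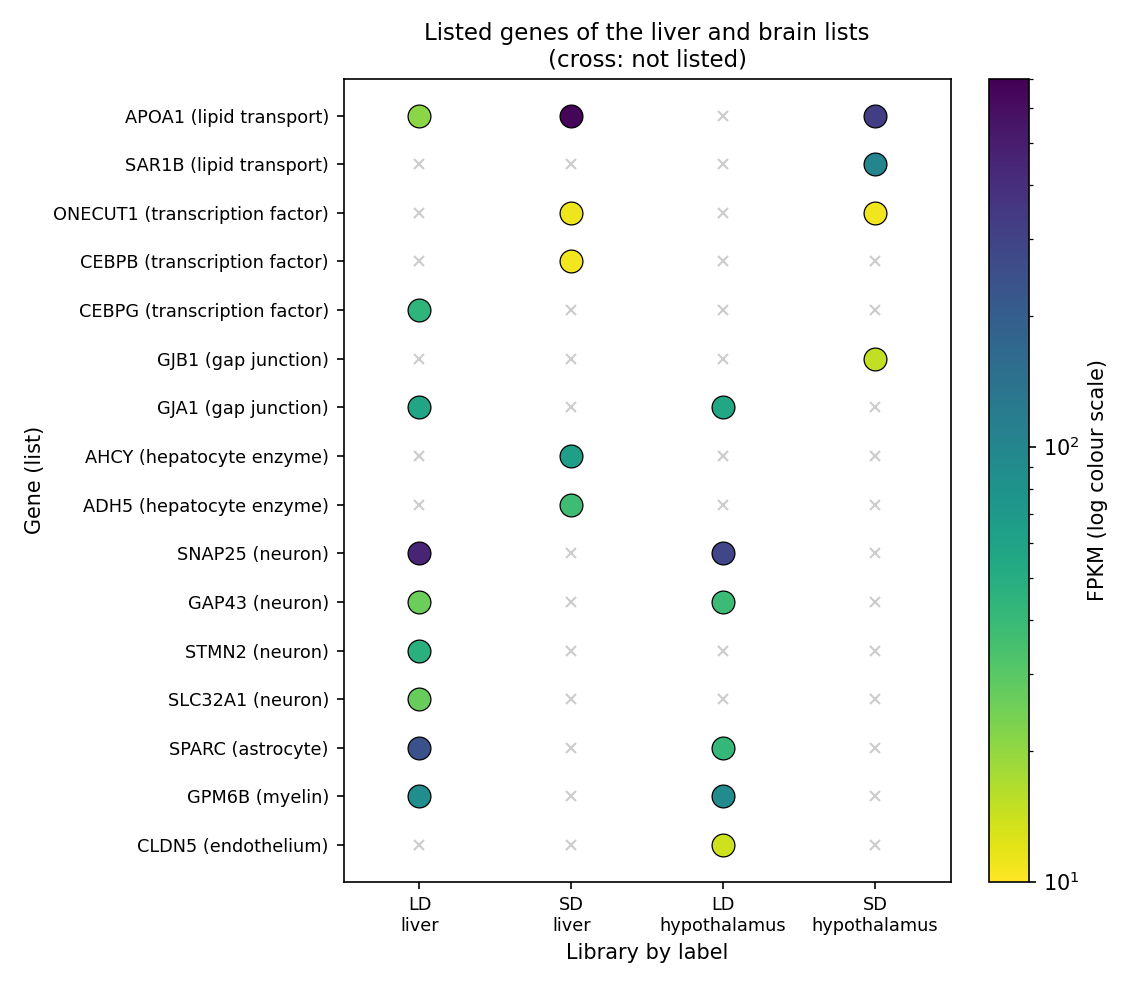
FPKM (colour, log scale) of listed genes of the liver and brain lists in LD liver, SD liver, LD hypothalamus and SD hypothalamus, 1 library each, with crosses where a gene is not listed. ONECUT1, CEBPB, GJB1, SAR1B, AHCY and ADH5 are listed only in libraries labelled SD, and APOA1 is in 3 libraries. CEBPG and GJA1 of the same lists, and the genes of the neuron, astrocyte, myelin and endothelium lists, are listed only in libraries labelled LD. Of all named loci, 60.4% were listed in a single library. The 4 genes were chosen by where they are listed, and some listed genes are not plotted, so nothing is read from this split.

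Few named genes shared the libraries of APOA1 or ONECUT1. Of all 278 named loci, 7.19% were listed in 3 libraries and 30.2% in 2. SD hypothalamus listed only 36 named loci, so few genes could share a set that includes it, and nothing is read from these counts. At the level of loci, 7 other genes with a symbol were listed in LD liver, SD liver and SD hypothalamus and not in LD hypothalamus. Nearest to APOA1 by Euclidean distance of log2 FPKM plus 1 over these 3 libraries was MDH1, cytosolic malate dehydrogenase, at a distance of 4.35 (30.9, 74.9 and 40.1 FPKM in LD liver, SD liver and SD hypothalamus). The translation factor EIF5 (4.44) and the GTPase ARF6 (4.64) came next, so none of these 7 genes lay close to APOA1 in level. Other loci were not compared. The distances use FPKM, which for EIF5 depends on transcript length. Its log2 ratio of LD liver over SD liver was -0.41 in FPKM and 2.24 in aligned bases per megabase. Taken by name, in LD liver and SD hypothalamus only, 6 other genes were listed in the same libraries, led by the translation factor EIF4G2 at a distance of 3.19. ONECUT1 shared its pair of libraries with MESDC1 at a distance of 1.34 (13.8 FPKM in SD liver and 28.6 in SD hypothalamus) and, at the level of loci, with PAICS, an enzyme of purine synthesis (143 and 78.9 FPKM). The direction for PAICS depended on the scale. Its log2 ratio of SD liver over SD hypothalamus was 0.85 in FPKM but -1.38 in aligned bases per megabase.

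Listing in a single library was common, so CEBPB and GJB1 do not stand apart by it. CEBPB was one of 32 named genes found by name in SD liver only, and the nearest in level were RNF103, a membrane ubiquitin ligase (11.7 FPKM), KLHL25 (9.76 FPKM) and the phosphatase PTP4A3 (12.3 FPKM). GJB1 was one of 9 in SD hypothalamus only, and nearest to it were the receptor GPR146 (19.7 FPKM) and the actin-binding peptide TMSB4X (21.1 FPKM). With 1 library behind each, nearness in level says little.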

How the data were processed

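RNA of hypothalamus and liver was extracted with a phenol-based reagent and sequenced by pyrosequencing, per the labels' protocols. Per the file headers, the authors ran StringTie 1.3.3b on trimmed alignments with gene models of another songbird, the collared flycatcher (build FicAlb 1.4, Ensembl 89), and allowed transcripts outside those models. Names of the aligner and trimmer were not given in the sources used here. Coverage, FPKM and TPM per transcript, and coverage per exon, stand in a text field of the deposited files. Reads that differ from the flycatcher sequence may be lost, and no label says that strand was kept.

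FPKM was summed per gene by reference name, and by locus (exons overlapping by 1 base on the same strand, or the same reference gene; 750 loci). Aligned megabases follow from the ratio of FPKM to coverage. Ratios are log2 with a pseudocount of 1, formed where both libraries list the gene, and a 2-fold ratio was called. The code was tested on simulated data (Python 3.11.15, pandas 2.3.3).

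The members, the 11 lists (215 genes) and the rule for named genes (the members, listed genes of the lists, and up to 5 genes listed in the same libraries) were chosen with earlier results of these data known. Some genes that the rule takes are left out of the text and plots. Alternatives were other pseudocounts, TPM, a length-free scale, median scaling, whole loci, and minimum coverage or bases.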

Additional observations from a re-analysis of the deposited data

How the results depend on the processing

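The lower APOA1 level in LD liver than in SD liver kept its direction and stayed above 2-fold wherever a value could be formed. Its log2 ratio of -4.91 was -4.11 on the length-free scale and -4.08 in FPKM over the reference length (an alternative added after seeing the data), since the transcripts differ in length. The ratio of SD liver over SD hypothalamus stayed positive but left the 2-fold line under most settings, at 0.98 with a pseudocount of 10, 0.96 in TPM, 0.9985 after median scaling, 0.18 on the length-free scale and 0.18 over the reference length. ONECUT1 in the SD pair lay between -0.01 (TPM) and 0.02, so its sign is not fixed. With a coverage of at least 1, no ratio could be formed for ONECUT1 or for APOA1 in LD liver.

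Loci at least 2-fold apart numbered 14 of 67 in the SD pair, and 9 of 67 with a pseudocount of 10. In the LD pair they numbered 38 of 142, and 25 of 121 with at least 150 aligned bases in each library. That filter also lowered the number of loci compared. Median scaling turned the split between the liver labels from 10 higher and 10 lower into 16 higher and 7 lower in LD. At this depth CEBPB and GJB1 rest on 184 and 197 aligned bases. No paired analysis was possible because each label has 1 library and no test was run.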
